A study of Homo sapiens with 8 samples.

Results

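The genes examined were 10 enzymes of pyrimidine metabolism: *CAD*, *DHODH*, *UMPS* and *CTPS1* of synthesis, *UPP1*, *UCK2* and *TK1* of salvage, *TYMS* and *DUT* of thymidylate supply, and *DPYD* of breakdown. The set was chosen by the treatment values of *UPP1*, which were higher than control in one of 2 cell lines and not in the other, so these values are a description and carry no test. All 10 were among the 63241 genes listed for NCI-H716, and 6 were among the 28043 genes listed for HCT116, because the HCT116 table used here ends on chromosome 9 and is full only for chromosomes 1 to 8. *DHODH*, *TK1*, *TYMS* and *DUT* lie on other chromosomes and have values in NCI-H716 only.

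The study treated cells with Z325 (ZINC000101867325), a small molecule found by docking as a candidate inhibitor of the fibroblast growth factor receptors, and asked how transcription changed. It also reports binding to a receptor kinase domain, lower receptor phosphorylation and more apoptosis in treated cells, and predicts off-target kinases. HCT116, an adherent colorectal carcinoma line, and NCI-H716, a colorectal carcinoma line with neuroendocrine traits, each gave 2 control and 2 Z325 libraries, 8 in all. The groups were HCT116 control, HCT116 Z325, NCI-H716 control and NCI-H716 Z325, and no allele or other agent is given for any of them. The study set a common concentration for the work after its viability assay, while how long the sequenced cells were exposed, and whether at that concentration, is not given in the sources used here. It calls the replicates biological duplicates, and whether they were separate cultures is not given there, so p-values may measure only the spread between these libraries. Libraries were amplified from about 100 cells each, and in such bulk RNA fewer cells and less RNA per cell cannot be told apart.

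Cells make UMP, the parent of all pyrimidine nucleotides, by building the ring from glutamine, bicarbonate and aspartate, or they recover it from uridine and cytidine. The newly made ring passes through CAD in the cytosol, DHODH in the mitochondrion and UMPS, whereas salvage uses kinases such as UCK2 and TK1, and uridine phosphorylase, which splits uridine into uracil and a ribose phosphate. In colorectal cancer these enzymes are best known through fluorouracil, which is activated by several of them, acts on thymidylate synthase (TYMS) and is broken down by DPYD.

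Depth differed in HCT116. Totals over the listed genes were 13183792 to 13396225 counts in 3 libraries and 3434620 in Z325 replicate 2, and they were 10210239 to 19738840 in NCI-H716. The epithelial surface protein *EPCAM* was at 608 FPKM or more in each HCT116 library, and 2 other epithelial markers listed there (*VIL1*, *CDX1*) were at 0.33 or less, as were all 4 listed markers of blood or stromal cells. In NCI-H716 the epithelial markers *EPCAM* (30.0 to 40.1 FPKM), *KRT8* (202 to 250) and *KRT18* (234 to 281) and the neuroendocrine marker *CHGA* (69.3 to 81.9) were present, while *CDH1* and *CDX1* were at 0.15 FPKM or less. The epithelial markers *KRT19*, *VIL1* and *CDX2* were at 1.84 to 6.76 FPKM there. The other neuroendocrine markers, *SYP*, *INSM1*, *PCSK1* and *SCG2*, were at 3.37 to 31.8 FPKM. In HCT116 *SCG2* was at 5.42 to 8.65 FPKM and *PCSK1* at 0.0279 or less. Of 9 markers of blood, stromal or endothelial cells, 8 were at 1.16 FPKM or less in NCI-H716, and the fibrillar collagen *COL3A1* was at 94.3 to 153.

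The upstream sequences are shown for *UPP1*, the gene for which the set was picked, for *UCK2*, the other uridine salvage enzyme, and for *CAD*, the entry enzyme of synthesis. They come from RefSeq on GRCh38.p14, all lie on the plus strand, and each stops where an annotated exon starts. The capitals mark GC boxes (GGGCGG or its reverse complement). *UPP1* has listed start sites at base 48088704 (here the earlier one), base 48089254 (here the later one) and base 48089265. Upstream stretches are given for the later one (chr7:48089004-48089211) and the earlier one (chr7:48088454-48088627). The stretch of base 48089265, chr7:48089015-48089211, lies within that of the later one and is not printed again. *UCK2* is shown at chr1:165827364-165827613 and *CAD* at chr2:27217119-27217368.
UPP1, later start site: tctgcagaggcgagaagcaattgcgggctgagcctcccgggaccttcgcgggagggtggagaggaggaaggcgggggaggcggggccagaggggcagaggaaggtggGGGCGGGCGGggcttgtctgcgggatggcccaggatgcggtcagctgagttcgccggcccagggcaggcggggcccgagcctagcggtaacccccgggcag
UPP1, earlier start site: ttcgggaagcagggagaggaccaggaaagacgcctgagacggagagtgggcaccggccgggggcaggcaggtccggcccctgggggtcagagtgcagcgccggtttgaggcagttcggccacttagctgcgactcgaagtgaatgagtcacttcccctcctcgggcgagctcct
UCK2: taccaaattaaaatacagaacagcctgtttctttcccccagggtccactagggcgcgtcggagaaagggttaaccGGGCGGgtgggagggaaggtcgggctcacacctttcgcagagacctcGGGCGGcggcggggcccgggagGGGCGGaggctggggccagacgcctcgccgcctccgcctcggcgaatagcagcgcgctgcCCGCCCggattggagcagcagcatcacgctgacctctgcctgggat
CAD: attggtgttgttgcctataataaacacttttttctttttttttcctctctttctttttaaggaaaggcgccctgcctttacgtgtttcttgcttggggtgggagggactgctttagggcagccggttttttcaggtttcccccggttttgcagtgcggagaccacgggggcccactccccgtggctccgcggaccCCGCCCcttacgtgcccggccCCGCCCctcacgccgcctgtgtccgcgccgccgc

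The stretch before the later *UPP1* start held 2 overlapping GC boxes in 208 bases and was 73.1% G or C, and the stretch before the earlier start held none in 174 bases. *UCK2* held 4 GC boxes and *CAD* held 2, each in 250 bases. Over whole windows of 300 bases (250 before and 50 after a start site), searched on both strands, 13 of 18 windows of the 10 enzymes held GGGCGG, as did 45.0% of 35116 windows of all genes. Several of the 18 windows overlap each other and share bases. The antioxidant response element core TGACNNNGC, present in 13.3% of all windows, was found in 1 *UPP1* window (28 bases after the earlier start) and 1 *TK1* window. The E2F cores TTCGCGC and TTGGCGC, in 5.06% of all windows, were found in *DUT* alone among the enzymes, and the E-box CACGTG, in 7.26%, in *DHODH* alone. The ATF4 or CHOP element core TGATGCA, in 2.63% of all windows, was in none of the 18. A match of letters is a description and not a binding site.

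*UPP1* (ENSG00000183696, uridine phosphorylase; chromosome 7, 48088628 to 48108736, plus strand) was the member with the largest difference in HCT116. Its level was 53.4 and 74.4 CPM (read counts scaled to a common library total, with TMM factors) in the HCT116 controls and 244 and 239 CPM with Z325. Both Z325 libraries lay far above both controls and close to each other. The means were 63.9 ± 14.8 CPM (SD, n = 2) and 242 ± 3.71 CPM (SD, n = 2), a log2 fold change of 1.92 (SE 0.19), or 3.78-fold. The raw counts behind these values were 739 and 970 in the controls and 3126 and 835 with Z325, the last from the shallow library. Leaving out each library in turn gave a log2 fold change between 1.69 and 2.17. In NCI-H716 *UPP1* was at 14.99 and 13.7 CPM in the controls and 14.4 and 13.6 CPM with Z325. There the groups overlapped, and the log2 fold change was −0.04 (SE 0.23). The change in NCI-H716 minus that in HCT116 was −1.97 log2 units, which is the difference that chose the set.

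**Figure D1:**
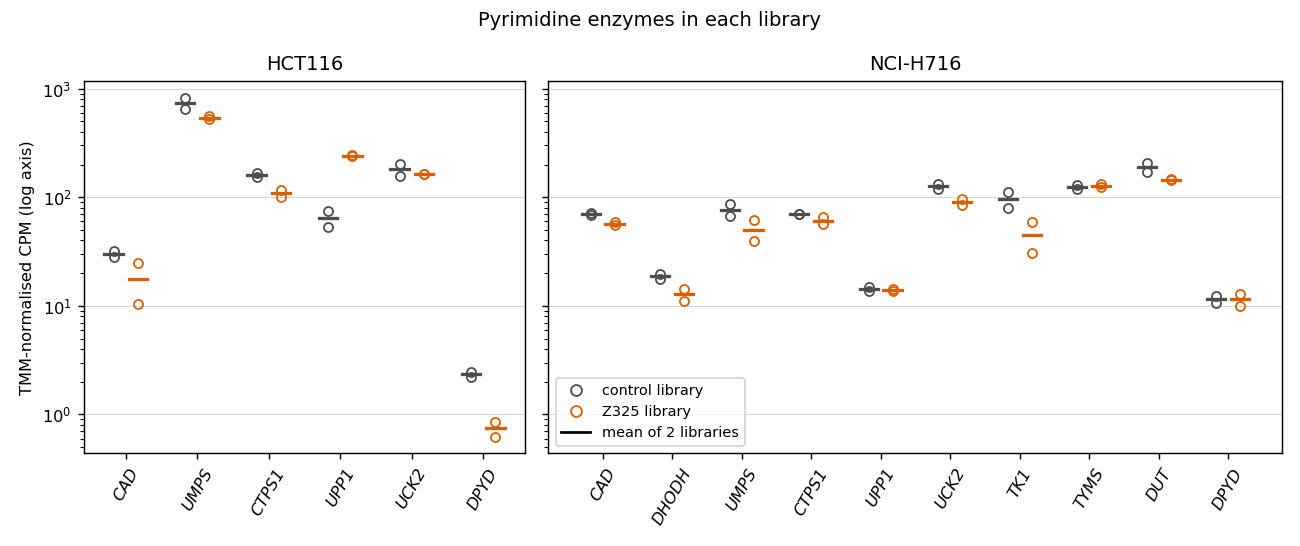
CPM (TMM-scaled, log axis) of each enzyme in each library, HCT116 and NCI-H716 side by side, with control and Z325 libraries as separate points and lines at the mean of 2 libraries. *UPP1* stands at 244 and 239 CPM in the Z325 libraries of HCT116 against 53.4 and 74.4 in the controls, and at 13.6 to 14.99 CPM in all 4 NCI-H716 libraries. Heights cannot be compared between the lines, because the HCT116 totals cover only the chromosomes listed there.

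The enzymes of synthesis had lower values with Z325 in HCT116, and none of them passed the test there. With *UPP1* set aside, 5 members were tested in HCT116, all 5 had a log2 fold change under 0, and 0 were called at an adjusted p under 0.05 (edgeR, adjusted over all genes tested), beside 5.78% of 6491 genes. At an unadjusted p under 0.05, 2 of the 5, *CTPS1* and *UMPS*, were lower, beside 12.7% of all genes tested. DESeq2 called 1 of the 4 to which it gave an adjusted p, *CTPS1* (adjusted p = 0.0252), beside 13.3% of all genes, and limma on log2(FPKM + 1) called 0, as it did over all 14822 genes. In 4 of the 5 both Z325 libraries lay below both controls, which held for 29.0% of all genes tested. The median log2 fold change of the 5 was −0.58, beside −0.03 over all genes.

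*CAD* (ENSG00000084774, chromosome 2, 27217369 to 27243943, plus strand) codes for the protein that carries out the opening steps of ring synthesis. It was at 28.1 and 32.2 CPM in the HCT116 controls and 10.5 and 24.9 CPM with Z325. Both Z325 libraries were below both controls but far apart from each other, with 134 and 87 raw counts. The log2 fold change was −0.82 (SE 0.39, 95% interval −1.72 to 0.08, edgeR adjusted p = 0.248). Without Z325 replicate 2 it was −1.50, and over the 4 ways of leaving out a library it ran from −1.50 to −0.29. Such fits leave 1 library in a group, so they are given here without a p-value. In NCI-H716 *CAD* was at 70.9 and 69.0 CPM in the controls and 55.4 and 58.8 CPM with Z325. The groups did not overlap, and the log2 fold change was −0.29 (SE 0.17, 95% interval −0.67 to 0.08, edgeR adjusted p = 0.409).

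*UMPS* (ENSG00000114491, chromosome 3, 124730433 to 124749273, plus strand), which converts orotate to UMP, was at 647 and 822 CPM in the HCT116 controls and 523 and 557 CPM with Z325. Its log2 fold change was −0.44 (SE 0.15, 95% interval −0.78 to −0.11, edgeR adjusted p = 0.116). In NCI-H716 it was at 85.9 and 66.5 CPM in the controls and 61.4 and 39.5 CPM with Z325. The log2 fold change there was −0.60 (SE 0.23, 95% interval −1.12 to −0.08, edgeR adjusted p = 0.243). In both lines the Z325 libraries lay below the controls without overlap, and in neither line did *UMPS* pass the test. Without Z325 replicate 2 in HCT116 the log2 fold change was −0.46, and without Z325 replicate 1 in NCI-H716 it was −0.94. Without Z325 replicate 2 in NCI-H716 it was −0.30, and without control replicate 1 there it was −0.40.

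*DHODH* (ENSG00000102967, chromosome 16, 72008588 to 72027664, plus strand), the mitochondrial enzyme that makes orotate, was at 19.7 and 17.8 CPM in the NCI-H716 controls and 11.1 and 14.4 CPM with Z325. The groups did not overlap. The log2 fold change was −0.56 (SE 0.24, 95% interval −1.09 to −0.03, edgeR adjusted p = 0.277).

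*CTPS1* (ENSG00000171793, chromosome 1, 40979300 to 41012565, plus strand), which turns UTP into CTP, was at 154 and 168 CPM in the HCT116 controls and 100 and 117 CPM with Z325. Both Z325 libraries were below both controls. The log2 fold change was −0.58 (SE 0.16, 95% interval −0.94 to −0.22, edgeR adjusted p = 0.0698), and without Z325 replicate 2 it was −0.66. In NCI-H716 it was at 69.9 and 69.7 CPM in the controls and 56.9 and 65.3 CPM with Z325, a log2 fold change of −0.19 (SE 0.17, 95% interval −0.57 to 0.19, edgeR adjusted p = 0.611).

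In NCI-H716 the values of 7 of the 9 members other than *UPP1* were lower with Z325, and 0 of the 9 were called at an adjusted p under 0.05 (edgeR), beside 0.502% of 14142 genes. At an unadjusted p under 0.05, 5 of the 9 were lower (*TK1*, *UCK2*, *UMPS*, *DHODH* and *DUT*), beside 9.27% of all genes tested. DESeq2 called 1, *TK1* (adjusted p = 0.0153), beside 2.90% of all genes, and limma on log2(FPKM + 1) called 0, as it did over all 32032 genes. In 7 of the 9 both Z325 libraries lay below both controls, beside 25.1% of all genes tested. The median log2 fold change of the 9 was −0.38, beside −0.01 over all genes.

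*TK1* (ENSG00000167900, chromosome 17, 78174091 to 78187233, minus strand), the cytosolic thymidine kinase that is made mainly in dividing cells, had the largest difference of the set in NCI-H716. It was at 111 and 79.8 CPM in the controls and 59.2 and 30.5 CPM with Z325. The groups did not overlap, and each group spread widely. The log2 fold change was −1.10 (SE 0.29, 95% interval −1.74 to −0.46, edgeR adjusted p = 0.129). Single libraries moved this value. It was −1.64 without Z325 replicate 1, −0.68 without Z325 replicate 2 and −0.83 without control replicate 1.

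*UCK2* (ENSG00000143179, chromosome 1, 165827614 to 165911618, plus strand), the kinase that phosphorylates uridine and cytidine, was at 133 and 120 CPM in the NCI-H716 controls and 96.1 and 85.2 CPM with Z325. The groups did not overlap, and the log2 fold change was −0.48 (SE 0.17, 95% interval −0.85 to −0.11, edgeR adjusted p = 0.204). On the log2(FPKM + 1) scale the change of *UCK2* there was smaller, at −0.25. In HCT116 it was at 157 and 204 CPM in the controls and 165.1 and 164.7 CPM with Z325. There the groups overlapped, and the log2 fold change was −0.13 (SE 0.16, 95% interval −0.50 to 0.24, edgeR adjusted p = 0.682). *UCK2* shares 5.9% of its exon bases with a noncoding RNA and 2.0% with *TMCO1*, both on the other strand, and since the kit keeps no strand its counts are uncertain to that extent.

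The thymidylate enzymes were measured in NCI-H716 only. *TYMS* (ENSG00000176890, chromosome 18, 657653 to 673578, plus strand), which methylates dUMP, was at 120 and 129 CPM in the controls and 125 and 132 CPM with Z325. The groups overlapped, with a log2 fold change of 0.04 (SE 0.16, 95% interval −0.31 to 0.40, edgeR adjusted p = 0.917). *DUT* (ENSG00000128951, chromosome 15, 48331011 to 48343373, plus strand), which removes dUTP and yields dUMP, was at 205 and 172 CPM in the controls and 143 and 146 CPM with Z325. Its groups did not overlap, with a log2 fold change of −0.38 (SE 0.17, 95% interval −0.75 to −0.02, edgeR adjusted p = 0.282). On the log2(FPKM + 1) scale the change of *DUT* was larger, at −0.54. The ratio of *TK1* to *TYMS* in FPKM was 0.798 and 0.488 in the controls and 0.414 and 0.220 with Z325. The counts of *TYMS* and *DUT* are uncertain, because *TYMS* shares 39.9% of its exon bases with *ENOSF1* and 8.0% with *TYMSOS*, and *DUT* shares 14.5% with *DUT-AS1*, on the other strand in each case.

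*DPYD* (ENSG00000188641, chromosome 1, 97077743 to 97995000, minus strand), which starts the breakdown of uracil and thymine, had few counts in HCT116, where it was at 2.46 and 2.22 CPM in the controls and 0.626 and 0.859 CPM with Z325. These values rest on 34 and 29 raw counts in the controls and 8 and 3 with Z325. The log2 fold change was −1.71 (SE 0.79, 95% interval −3.50 to 0.09, edgeR adjusted p = 0.230). On the log2(FPKM + 1) scale, which understates the change of low genes, it was −0.27. In NCI-H716 *DPYD* was at 12.3 and 10.7 CPM in the controls and 10.003 and 12.97 CPM with Z325, and the groups overlapped (log2 fold change 0.00, SE 0.26, 95% interval −0.57 to 0.58, edgeR adjusted p = 0.995). *DPYD* shares 6.9% of its exon bases with *MIR137HG* and 1.5% with *DPYD-AS1* and is uncertain to that extent.

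**Figure D2:**
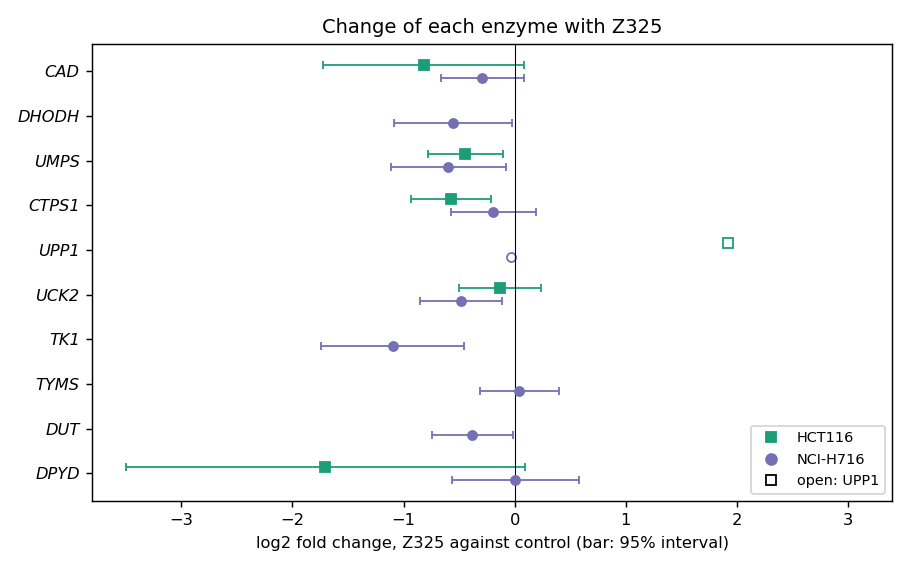
Log2 fold change of each enzyme with Z325 against control (horizontal axis), squares for HCT116 and circles for NCI-H716, bars for the 95% interval of the edgeR fit, with *UPP1* open and without an interval because its value chose the set. *UPP1* in HCT116 lies at 1.92, while the other changes lie between −1.71 and 0.04.

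The difference between the lines was tested for the 5 members other than *UPP1* that both lines list, as the interaction of treatment and line over the 8 libraries. It was called for 0 of 5 (edgeR), beside 0.0654% of 7642 genes, and DESeq2 and limma also called 0, beside 1.69% and 0.177% of all genes. At an unadjusted p under 0.05 it held for 1, *DPYD*, beside 14.3% of all genes tested. The change of *DPYD* in NCI-H716 was higher than that in HCT116 by 1.73 log2 units (SE 0.57, 95% interval 0.47 to 2.98, edgeR adjusted p = 0.227), and by 0.0829 on the log2(FPKM + 1) scale. The same difference was 0.56 for *CAD* (95% interval −0.35 to 1.48, edgeR adjusted p = 0.560) and 0.37 for *CTPS1* (95% interval −0.13 to 0.87, edgeR adjusted p = 0.480). For *CAD* it was 0.0813 without HCT116 Z325 replicate 1 and 1.22 without HCT116 Z325 replicate 2. It was −0.37 for *UCK2* (95% interval −0.88 to 0.15, edgeR adjusted p = 0.501) and −0.17 for *UMPS* (95% interval −0.84 to 0.49, edgeR adjusted p = 0.870). A missed threshold does not show that the 2 lines responded alike.

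Levels per length were then compared between enzymes within each line, as FPKM. In the HCT116 controls the order of mean FPKM was *UMPS* at 98.7, *UCK2* at 26.1, *UPP1* at 14.1, *CTPS1* at 13.6, *CAD* at 3.61 and *DPYD* at 0.333. *UPP1* and *CTPS1* overlapped, and the other neighbours did not. Order and spacing in HCT116 depend on the exon lengths used. These were 11958 bases for *CTPS1*, 7512 for *UMPS*, 6984 for *UCK2* and 4580 for *UPP1*. In NCI-H716 the effective length was 2461 to 2611 bases for *CTPS1* and 496 to 684 for *UCK2*. With Z325 *UPP1* moved from the third to the second place, at 50.9 and 53.1 FPKM against 22.6 and 24.0 FPKM for *UCK2*. In the NCI-H716 controls the order was *DUT* at 202 FPKM and *UCK2* at 195, then *TYMS* at 128, *TK1* at 80.1, *UMPS* at 41.7, *CAD* at 27.8, *CTPS1* at 27.3, *UPP1* at 19.9, *DHODH* at 6.57 and *DPYD* at 4.30. There *DUT* overlapped *UCK2* and *CAD* overlapped *CTPS1*, and *UPP1* was eighth of 10 in both groups. FPKM was not compared between the lines, because in HCT116 it rests on the full exon length and in NCI-H716 on the effective length from RSEM. For *UPP1* the effective length was 622 to 745 bases beside 4580 exon bases. The HCT116 totals also cover only the chromosomes listed there, so CPM was not compared between the lines either.

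*UPP1* was then set against the other enzymes within each library. The ratio of *UPP1* to *UCK2* in FPKM was 0.519 and 0.555 in the HCT116 controls and 2.26 and 2.21 with Z325. The ratio of *UPP1* to *UMPS* was 0.135 and 0.149 in the controls and 0.767 and 0.704 with Z325. Thus *UPP1* was below *UCK2* in both controls and above it in both treated libraries. Of the summed FPKM of the 6 enzymes that both lines list, *UPP1* made up 8.53% and 9.39% in the HCT116 controls and 34.1% and 32.1% with Z325. In NCI-H716 it made up 6.15% and 6.43% in the controls and 7.49% and 8.24% with Z325, and the ratio of *UPP1* to *UCK2* was 0.104 and 0.1002 in the controls and 0.124 and 0.127 with Z325. The ratios contain *UPP1*, whose value chose the set, and are given without a test. Their size in HCT116, and which of 2 enzymes is higher, also depend on the exon lengths used.

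**Figure D3:**
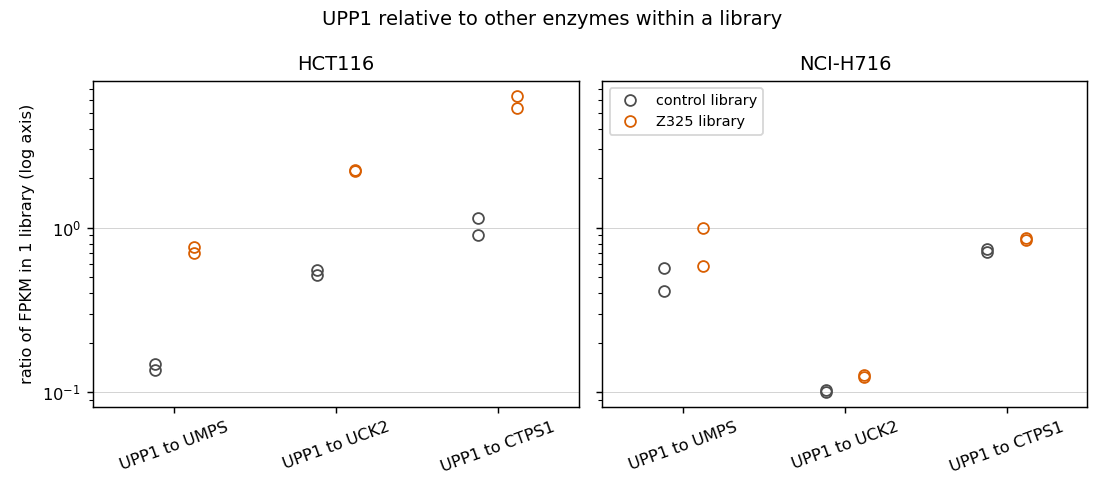
Ratios of *UPP1* to *UMPS*, *UCK2* and *CTPS1* in FPKM (log axis), a point for each control or Z325 library of HCT116 and NCI-H716. In HCT116 the ratio to *UCK2* was 0.519 and 0.555 in the controls and 2.26 and 2.21 with Z325. In NCI-H716 it was 0.104 and 0.1002 in the controls and 0.124 and 0.127 with Z325.

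Other genes of pyrimidine metabolism were counted from a list of 36: further kinases, nucleotidases, nucleoside transporters and enzymes of deoxynucleotide supply. In HCT116 16 of them were listed and 14 tested, and 2 fell and 0 rose at an adjusted p under 0.05 (edgeR), beside 2.94% and 2.83% of all genes tested. Without adjustment 5 were higher and 3 lower at p under 0.05, beside 11.2% and 12.7% of all genes tested, and the median log2 fold change was −0.09. DESeq2 called 5 of 13, 2 of them higher, beside 13.3% of all genes, and limma called 0, as over all genes. In NCI-H716 29 were tested and edgeR called 0. Without adjustment 3 were higher and 7 lower at p under 0.05, beside 7.59% and 9.27% of all genes tested, and the median was −0.11. DESeq2 called 3 of 27 there, all lower, beside 2.90% of all genes, and limma called 0, as over all genes.

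The 2 that fell in HCT116 were *RRM2*, the small subunit of ribonucleotide reductase, and *SLC29A1*, an equilibrative nucleoside transporter that carries uridine. *RRM2* was at 1723 and 1927 CPM in the HCT116 controls and 1055 and 1051 CPM with Z325, and its log2 fold change was −0.79 (SE 0.12, edgeR adjusted p = 0.0134). *SLC29A1* was at 126 and 182 CPM in the controls and 35.3 and 59.3 CPM with Z325, a log2 fold change of −1.73 (SE 0.28, edgeR adjusted p = 0.0142). Both calls were lost when either control was left out, as were most calls over all genes tested. Without control replicate 1 the log2 fold change was −0.88 for *RRM2* and −1.97 for *SLC29A1*, and without control replicate 2 it was −0.72 and −1.44. In NCI-H716 *RRM2* was at 420 and 426 CPM in the controls and 240 and 279 CPM with Z325 (log2 fold change −0.70, edgeR adjusted p = 0.0983). *SLC29A1* was at 60.9 and 50.1 CPM in the controls and 37.9 and 32.6 CPM with Z325 (log2 fold change −0.66, edgeR adjusted p = 0.161).

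Of 12 genes of this list tested in both lines, 6 had an unadjusted p under 0.05 in each, and all 6 had the same sign in the 2 lines. Over all 5014 genes tested in both lines, 290 had an unadjusted p under 0.05 in each and 258 of these had the same sign, 5.15% of the genes tested. Of these, 5 are described here: *RRM2*, *SLC29A1* and 3 others named after their values were seen. The thymidylate kinase *DTYMK* had log2 fold changes of −0.57 in HCT116 and −1.12 in NCI-H716. The pyrimidine nucleotidase *NT5C3A*, which yields uridine and cytidine from their monophosphates, was at 222 and 213 CPM in the HCT116 controls and 291 and 340 CPM with Z325. In NCI-H716 it was at 172 and 168 CPM in the controls and 247 and 242 CPM with Z325, and the log2 fold change was 0.53 in each line. The ectonucleotidase *NT5E* had log2 fold changes of 0.63 in HCT116 and 0.53 in NCI-H716. None of these 3 passed the adjusted threshold in edgeR in either line, the smallest adjusted p being 0.0607 for *NT5C3A* in HCT116. DESeq2 called all 3 in HCT116 and *DTYMK* in NCI-H716. In edgeR *DTYMK* was called without a filter in each line, *NT5C3A* in HCT116 with at least 10 counts in every library or with all 8 libraries in 1 fit, and all 3 in NCI-H716 with a replicate block.

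**Figure D4:**
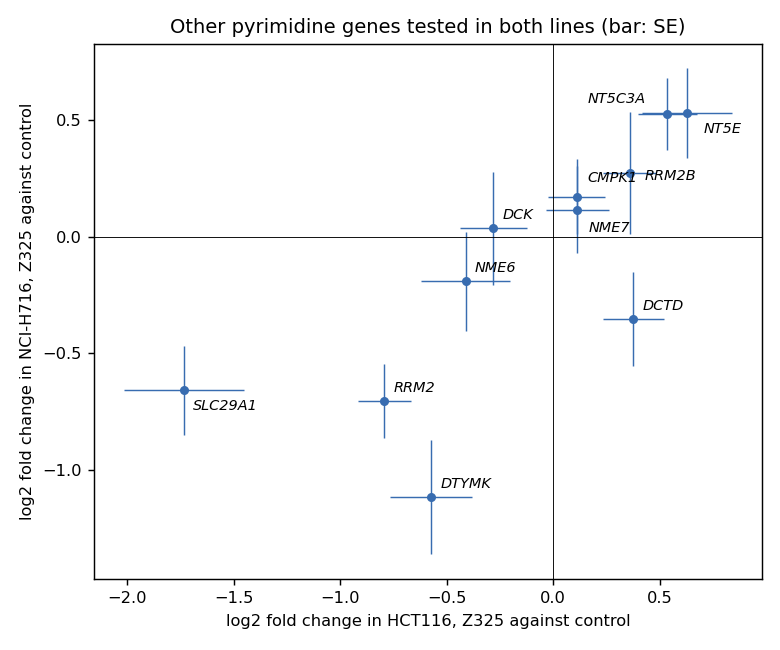
Log2 fold change with Z325 in HCT116 (horizontal) against NCI-H716 (vertical) for 11 further genes of pyrimidine metabolism tested in both lines, with bars for the SE. *SLC29A1* lies at −1.73 and −0.66, *DTYMK* at −0.57 and −1.12 and *NT5C3A* at 0.53 and 0.53.

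Transcripts of purine synthesis and of S phase were counted in 2 further lists. Of 15 purine synthesis genes, 6 were tested in HCT116 and edgeR called 0, beside 5.78% of all genes. Without adjustment 4 were lower at p under 0.05, beside 12.7%, and DESeq2 called 2, *GMPS* and *IMPDH1*, beside 13.3%, and limma 0. In edgeR *IMPDH1*, of guanine nucleotide synthesis, was at a log2 fold change of −1.46 (adjusted p = 0.0782) and *GMPS*, of the same branch, at −0.49 (adjusted p = 0.0861). In NCI-H716 15 were tested and edgeR called 0, beside 0.502% of all genes. Without adjustment 5 were lower and 1 higher at p under 0.05, beside 9.27% and 7.59%, and DESeq2 called 1, *PFAS*, beside 2.90%, and limma 0. There *PFAS* and *ADSL*, of purine ring synthesis, were at −1.02 (edgeR adjusted p = 0.109) and −0.61 (edgeR adjusted p = 0.173). Of 20 S phase genes, 9 were tested in HCT116, 3 fell (edgeR), beside 2.94% of all genes, and in all 9 both Z325 libraries were below both controls, beside 29.0%. Without adjustment 8 of the 9 were lower at p under 0.05, beside 12.7%. DESeq2 called 5 of the 9, beside 13.3% of all genes, and limma 0. The helicase subunits *MCM4* and *MCM7* had log2 fold changes of −1.39 (edgeR adjusted p = 0.00499) and −1.15 (edgeR adjusted p = 0.00674). Without control replicate 1 the log2 fold changes were −1.37 and −1.21, and without control replicate 2 they were −1.43 and −1.10. Both calls were lost in these fits, as were most calls over all genes tested. In NCI-H716 20 S phase genes were tested and edgeR called 0, beside 0.502% of all genes. In 16 of the 20 both Z325 libraries were below both controls, beside 25.1%. Without adjustment 9 were lower at p under 0.05, beside 9.27%, and DESeq2 called 4, beside 2.90%, and limma 0. The replication factor *CDC45* was there at a log2 fold change of −0.88 (edgeR adjusted p = 0.114) and the helicase subunit *MCM5* at −0.77 (edgeR adjusted p = 0.120). The part of these S phase differences in the values of *TK1*, *UMPS* and *CTPS1* was not tested.

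The genes whose pattern over the 8 libraries was most like that of *UPP1* were *SERPINI1*, *PACC1* and *LINC02980*. Likeness was the root mean square difference from *UPP1* in log2 CPM, centred on the controls of each line, over 8 values in 4827 genes. It was 0.193 for *SERPINI1*, 0.266 for *PACC1* and 0.268 for *LINC02980*. The ranking uses the *UPP1* values that chose the set, so it is a description without a test.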

How the data were processed

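RNA of 2 HCT116 control, 2 HCT116 Z325, 2 NCI-H716 control and 2 NCI-H716 Z325 libraries had been made by SMART-Seq2, an unstranded protocol. The study's methods name TrimGalore, STAR and RSEM on GRCh38, and the submitters' processing notes name Bowtie2 2.5.0, featureCounts and hg38. For HCT116 the authors deposited raw read counts per gene with exon lengths. For NCI-H716 the authors deposited RSEM expected counts, TPM and FPKM per gene. How reads shared by overlapping genes were counted is not given in the sources used here. Groups came from the sample titles, in which Test was read as Z325.

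In HCT116, 28043 genes were used and 4 broken or unfinished lines were left out. FPKM of HCT116 was computed from counts, exon length and the listed total. Expected counts were rounded. Symbols came from GENCODE v44, which named 62666 of 63241 NCI-H716 genes. Each line was fitted alone in edgeR 4.0.16 (TMM, filterByExpr, quasi-likelihood test, Benjamini-Hochberg adjustment over all genes tested), and called means an adjusted p under 0.05. The standard error is the log2 fold change divided by the square root of F. TMM factors ran from 0.956 to 1.038. Exact tests of 2 against 2 libraries cannot go below p = 0.333 and were not run. Alternatives used DESeq2 1.42.0, limma 3.58.1, other filters and scalings, a replicate block, thinning, 1 fit of all 8 libraries and leaving out each library. On simulated data with 200 genes changed 4-fold, edgeR called 85% over 6491 genes for HCT116 and 94.5% over 14142 for NCI-H716. For the interaction it called 74.4% of 227 changed genes over 5014. The simulation gave all genes of a line the same dispersion. Changes smaller than 4-fold, such as those of most members, were not simulated, so these shares do not show how often such changes would be called.

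The members and gene lists were chosen with earlier results of these data known. Besides the 10 members, the genes named were those of the further pyrimidine list called in either line (at most 8), at most 2 per line of the purine and S phase lists by smallest adjusted p, and the 3 most like *UPP1*. Genes outside this rule are said to be named after their values were seen. Counts cover all genes of a list, and 1 gene of the further pyrimidine list is not reported here by name or plotted. Protein sequences were not used here.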

Additional observations from a re-analysis of the deposited data

How the results depend on the processing

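Of 299 recomputed values over 22 results, 266 kept their direction and side of the threshold or, for the untested *UPP1*, stayed within the spread of replicates. Another 15 gained a call, 14 reversed and 4 values of *UPP1* moved by more than the spread of replicates. No tested member was called in the main fits, so no call could be lost. The number of members called in HCT116 (0 in edgeR) was 1 (*CTPS1*) under DESeq2, 1 with at least 10 counts in every library, 1 without a filter, and 0 to 3 when a library was left out, with 3 (*CAD*, *CTPS1*, *UMPS*) without Z325 replicate 2, where 1076 of 7093 genes were called. In NCI-H716 (0 in edgeR) it was 1 (*TK1*) under DESeq2, 1 without a filter and 0 to 2 when a library was left out, with 2 (*TK1*, *UMPS*) without Z325 replicate 1, where 1386 of 14969 genes were called. Within a line, a fit without 1 library takes its spread from the other group alone. Between the lines the number of members called was 0 under every alternative run. The largest share over all genes in those runs was 1.69%, under DESeq2, so a count of 0 among so few members says little. The replicate number shared by control and Z325 libraries was tried as a replicate block, although with 2 pairs the samples share only a number. The deviations of same-numbered libraries correlated at −0.03 in HCT116 and 0.20 in NCI-H716. The block called 5 members in NCI-H716 (*DHODH*, *DUT*, *TK1*, *UCK2*, *UMPS*), 0 in HCT116 and 0 between the lines, and over all genes 2397 in place of 71 in NCI-H716 and 381 in place of 375 in HCT116. Over all genes, limma on log2(FPKM + 1) called 0 in either line and DESeq2 called 709 in HCT116 and 316 in NCI-H716. Without a filter 683 and 777 genes were called, and with at least 10 counts 615 and 64. The cause was not tested.

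*UPP1* in NCI-H716, which has no call to reverse, was above 0 under 6 alternatives (0.0477, 0.0497 and 0.0477 in the limma fits, 0.0153 after thinning, 0.0381 without control replicate 1 and 0.0161 without Z325 replicate 2). Other values that changed sign were these. *UCK2* in HCT116 ran from −0.315 to 0.0614 when a library was left out, above 0 only without control replicate 2. *TYMS* in NCI-H716 was −0.0680, −0.0684 and −0.0680 in the limma fits and ran from −0.0028 (without control replicate 1) to 0.107. *DPYD* in NCI-H716 was −0.190, −0.232 and −0.190 in the limma fits, −0.0042 under the replicate block and −0.0419 after thinning, and ran from −0.184 to 0.185, under 0 without control replicate 2 (−0.0812) or Z325 replicate 2. The difference between the lines for *UMPS* ran from −0.482 to 0.126, above 0 without NCI-H716 control replicate 1 (0.0822) or Z325 replicate 2. In HCT116 *CAD* and *DPYD* rested on few counts with Z325, 134 and 87 for *CAD* and 8 and 3 for *DPYD*.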

Other observations

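Some enzymes next to the set in nucleotide metabolism were present in one line and near 0 in the other. *CDA*, the cytidine deaminase that turns cytidine into uridine, had 1179 and 1443 counts in the HCT116 controls and 1124 and 230 with Z325, the last in the shallow library. In NCI-H716 it had 2 and 0 counts in the controls and 0 and 0 with Z325. *IMPDH2*, a rate-limiting enzyme of guanine nucleotide synthesis, had 7 and 5 counts in the HCT116 controls and 0 and 0 with Z325, against 2703 and 2288 in the NCI-H716 controls and 2759 and 4576 with Z325. *IMPDH2* shares 32.8% of its exon bases with an overlapping gene on the same strand, so its HCT116 counts are uncertain, and how the counting treated such reads is not given in the sources used here. Both genes were named after their values were seen, and the 2 lines were counted in different ways.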
